A study of Mus musculus with 14 samples.

Results

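Of the 52459 gene symbols quantified, 8 genes of transforming growth factor beta (TGF-beta) signalling were followed here: Smad7, Smad6, Smad3, Skil, Ski, Tgif1, Inhba and Bambi. They were taken by symbol, and all 8 passed the filter on low counts that left 17732 genes for testing. The 8 genes and the gene lists used below were chosen with earlier results of these data known. The p-values given for them are therefore not independent of that choice. The set was built around Smad7, which was chosen by its measured response to potassium chloride (KCl), a response that differed between the mouse lines, so its KCl response in each line and its differences between the lines are described below without a test. The 8 genes were measured in 14 RNA-seq libraries of primary cortical neurons from E16.5 mouse embryos, 7 at basal and 7 after 1 h in 50 mM KCl, which depolarises neurons. Before KCl on day 6 in vitro, firing had been blocked on day 5 by 1 µM TTX, which closes sodium channels, together with 100 µM APV, an NMDA receptor antagonist. The labels do not say separately whether the basal cultures had this pretreatment. The SA line carried a knock-in of serine to alanine (S1382A) in BRG1, the motor subunit of the chromatin remodeller BAF, and the SE line a knock-in of serine to glutamate (S1382E) at the same residue. The SA line gave 2 SA and 2 wild-type littermate libraries per treatment, and the SE line gave 2 SE libraries and 1 wild-type littermate library per treatment. The labels give no zygosity for the knock-ins. They also do not state whether libraries came from separate embryos or cultures, so p-values measure only the spread between these libraries.

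TGF-beta, activin and BMP ligands bind paired serine/threonine kinase receptors, which phosphorylate receptor SMADs, and these enter the nucleus with SMAD4 to regulate transcription. Several of the genes they induce restrain the pathway in turn. SMAD7 and SMAD6 are inhibitory SMADs that occupy the receptors, SKI and SnoN (encoded by Skil) are co-repressors that bind SMAD complexes, TGIF1 is a homeodomain co-repressor, and BAMBI is a pseudoreceptor without kinase activity. SMAD3 is a receptor SMAD of the TGF-beta and activin branch. Inhba encodes the subunit of activin A, a ligand known to be induced by activity in neurons.

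Per length, Ski was the most abundant of the 8 genes, with a median over the 14 libraries of 61.9 TPM (transcript level corrected for length). Skil followed at 18.1 TPM, Smad3 at 7.48, Tgif1 at 6.71, Bambi at 3.76, Smad7 at 2.93, Inhba at 1.47 and Smad6 at 0.540. The order differed between the lines: in the SE line the median of Smad7 (6.73 TPM) was above those of Tgif1 (6.26) and Smad3 (4.05), and in the SA line that of Inhba (3.45) was above that of Smad7 (2.51). The SE-line median of Smad7 lies between its basal (2.98 to 3.79 TPM) and KCl libraries (9.67 to 10.8 TPM). At basal alone the SE-line medians were 6.25 for Tgif1, 4.42 for Smad3 and 3.35 for Smad7. The place of Smad7 above the other genes named there thus came from its KCl libraries. The ranges of neighbours in this order overlapped from Skil down to Smad6, while the lowest Ski library (58.0 TPM) lay above the highest Skil library (36.6 TPM). Smad6 rested on only 10 to 133 estimated counts per library and Inhba on 19 to 484, against 4825 to 5440 for Ski. The libraries numbered 1 of the SA-line wild type stood apart in cell type markers, so values called with the SA line are also given without them. Library totals were 22625916 to 23096206 estimated counts. Levels below are CPM (read counts relative to the scaled library total), unless TPM is named.

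**Figure D1:**
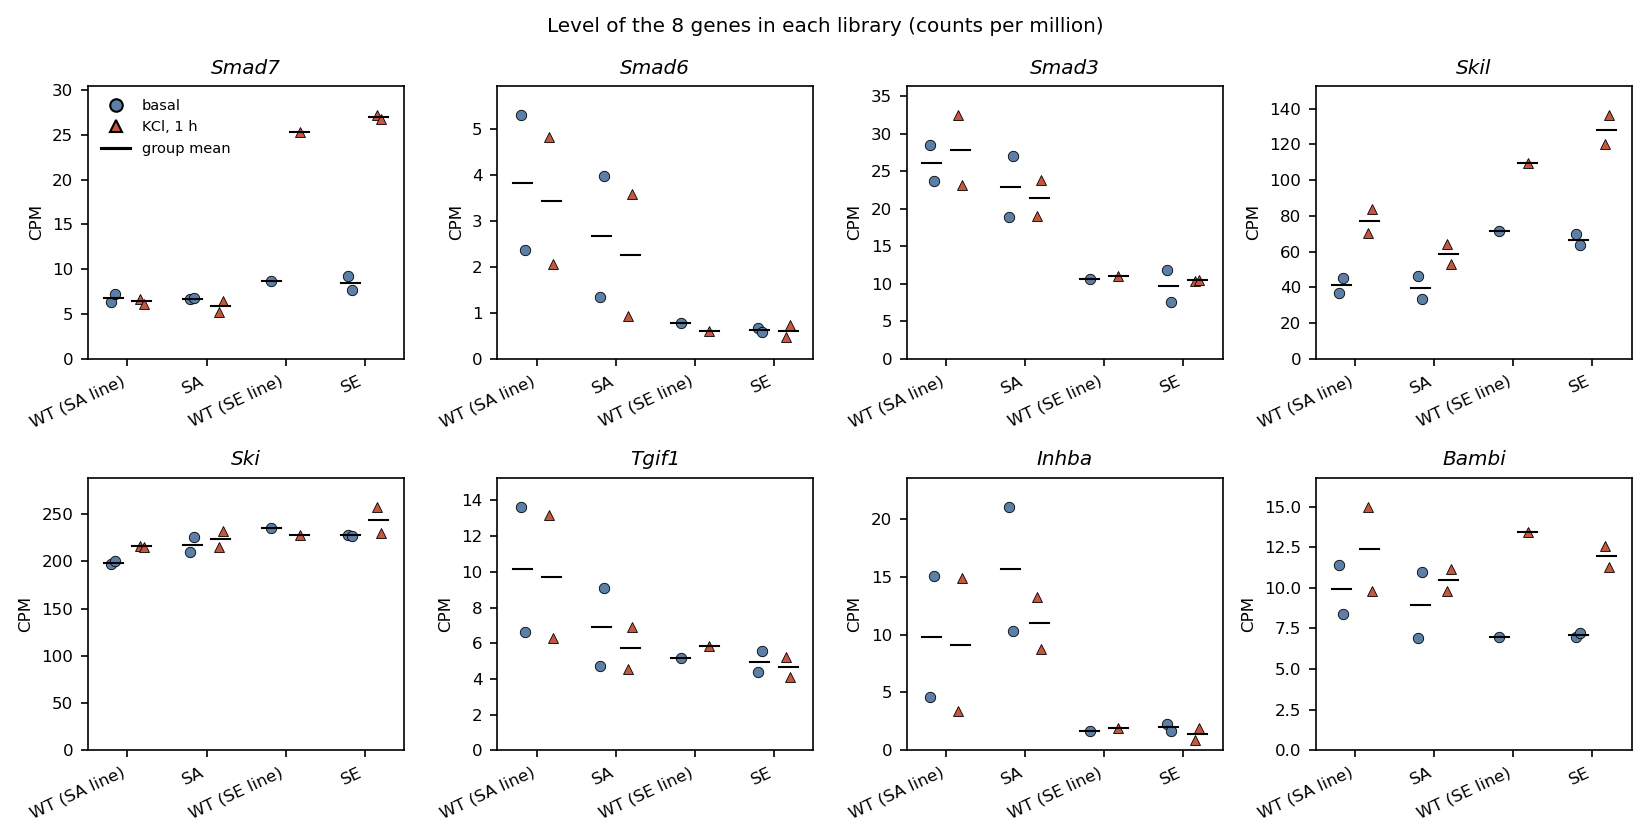
Level of each of the 8 genes in each library, in CPM (vertical axis, from 0), by genotype and line, with basal libraries as circles, KCl libraries as triangles and the group mean as a line. Smad7 after KCl lies between 25.3 and 27.2 CPM in the SE line and between 5.25 and 6.72 CPM in the SA line.

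Smad7 (ENSMUSG00000025880.11, GRCm38 chromosome 18, 75367529 to 75395935, plus strand) is the feedback inhibitor on which the set was chosen. In the SA line its basal level was 6.70 and 6.76 CPM in SA and 6.37 and 7.18 CPM in the wild type. After KCl it was 5.25 and 6.47 CPM in SA and 6.72 and 6.09 CPM in the wild type of that line. Basal and KCl values of the SA line thus overlapped. In the SE line the basal level was 9.20 and 7.69 CPM in SE and 8.63 CPM in the wild-type library. After KCl it was 27.2 and 26.8 CPM in SE and 25.3 CPM in the wild type, so every KCl library of the SE line stood above all other libraries, with the mutant and wild-type libraries alike. The log2 response was -0.14 ± 0.12 (± standard error of the model, 4 libraries per treatment) in the SA line and 1.64 ± 0.13 (3 per treatment) in the SE line, a 3.11-fold higher level. The difference between the lines was 1.77 ± 0.17, which is the quantity behind the choice of the gene, and 0.152% of all genes were called in that comparison (27 genes, edgeR adjusted p under 0.05). Libraries with the same group and number gave KCl to basal ratios of 0.786 to 1.05 in the SA line and 2.92 to 3.46 in the SE line. Of 5 annotated Smad7 transcripts only 1 held at least 10% of the TPM of the gene, and its log2 response was -0.10 in the SA line and 1.63 in the SE line.

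For the other genes the same difference, SE line minus SA line, was 0.54 for Bambi, 0.17 for Tgif1, 0.10 for Skil, 0.09 for Smad3, 0.05 for Inhba, 0.03 for Smad6 and -0.03 for Ski on the log2 scale. These are descriptions, since the set was assembled around this contrast. The standard errors were 0.19 for Skil and 0.29 for Bambi, but 0.91 for Smad6 and 0.86 for Inhba.

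**Figure D2:**
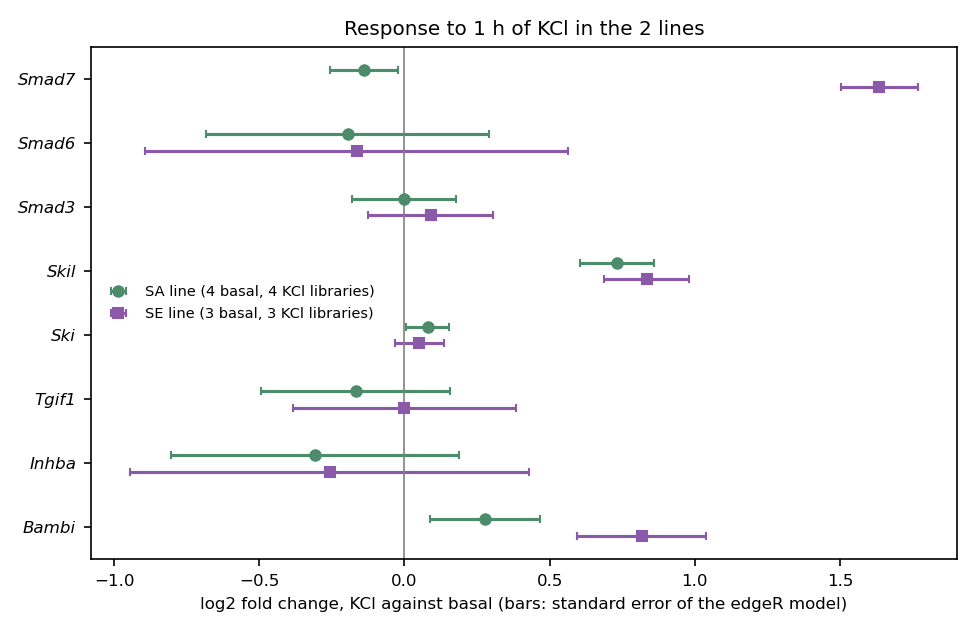
Log2 fold change after 1 h of KCl for each gene in the SA line (circles) and the SE line (squares), with the standard error of the edgeR model as bars. Skil lies at 0.73 and 0.83 in the lines, Smad7 at -0.14 and 1.64, and the Smad6 and Inhba bars cross 0.

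Skil (ENSMUSG00000027660.16, chromosome 3, 31095058 to 31122577, plus strand), which encodes the co-repressor SnoN, rose after KCl in both lines. In the SA line it went from 46.3 and 33.3 CPM at basal to 64.1 and 53.2 CPM after KCl in SA. Its wild-type littermates went from 37.0 and 45.3 to 70.5 and 83.8 CPM. SE libraries had 69.6 and 63.8 CPM at basal and 120.3 and 136 CPM after KCl, and the wild-type library moved from 71.3 to 109 CPM. Basal and KCl libraries did not overlap within either line, and KCl was higher in 7 of 7 same-number comparisons. The labels do not pair libraries by number, so such tallies, here and below, are descriptions. The log2 response was 0.73 ± 0.13 in the SA line (1.66-fold, edgeR adjusted p = 0.0171) and 0.83 ± 0.15 in the SE line (1.78-fold, edgeR adjusted p = 0.0147). Averaged over the lines it was 0.78 ± 0.10 (1.72-fold, edgeR adjusted p = 0.00106). Skil was the 1 gene called among the 7 tested (Smad7 left out) in each of these comparisons, where 2.02%, 2.81% and 5.02% of all genes were called. The SA-line call was lost without SA KCl library 1 (adjusted p = 0.0838), SA basal library 2 (0.0504), wild-type basal library 1 (0.0552) or wild-type KCl library 2 (0.0564), and the SE-line call without SE basal library 1 (0.0804), SE basal library 2 (0.1002) or SE KCl library 2 (0.0802). The fit on the SA-line libraries alone gave an edgeR adjusted p of 0.112 for that line. With limma on log2 TPM the adjusted p was 0.0970 in the SA line and 0.0533 in the SE line, whereas the call over both lines held in 21 of 21 alternatives (adjusted p from 1.4e-11 to 0.00818). Without both libraries of wild type number 1 the SA-line response was 0.72 (edgeR adjusted p = 0.0338), and that over both lines 0.78 (0.00117).

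Of the 2 main Skil transcripts, 1 rose after KCl and the other was not called, a comparison chosen after its values were seen. Skil-201 (ENSMUST00000029194.11, 6717 bases) and Skil-204 (ENSMUST00000118470.7, 6578 bases) each have 7 exons and differ by 138 coding bases (46 codons, reading frame kept) at the 3′ end of exon 4, chr3:31113503-31113640, plus strand, in GRCm38 with GENCODE M21. The shorter protein is known as SnoN2. The sequences around this segment are shown because they are what separates the transcript that rose from the one that was not called. Capitals mark the 138 bases that only Skil-201 holds, and the lower-case letters are the 30 bases on each side that both transcripts share, read 5′ to 3′ from the GENCODE M21 transcripts.
Skil-201: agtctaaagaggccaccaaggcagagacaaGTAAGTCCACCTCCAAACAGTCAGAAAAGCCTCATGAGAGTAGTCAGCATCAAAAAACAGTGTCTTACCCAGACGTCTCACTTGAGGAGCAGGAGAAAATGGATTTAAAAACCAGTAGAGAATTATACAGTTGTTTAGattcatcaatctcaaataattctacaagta
Skil-204: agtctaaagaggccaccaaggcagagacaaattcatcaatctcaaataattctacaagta
The segment opens with GTAAGT and is spliced out with the following intron in Skil-204. The transcript ends differ otherwise by only 3 bases at the 5′ end and 4 at the 3′ end.

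Skil-201 went from 5.75 and 4.13 TPM at basal to 11.8 and 9.16 TPM after KCl in SA, and from 3.89 and 7.64 to 14.4 and 16.7 TPM in wild-type littermates of SA. SE libraries of the other line went from 7.53 and 9.30 to 23.4 and 26.6 TPM, and their wild-type library from 9.49 to 19.95 TPM. Every KCl library stood above every basal library of its line. Skil-204 had 7.52 and 5.27 TPM at basal and 5.31 and 5.50 TPM after KCl in SA, and 7.18 and 6.83 against 7.24 and 7.74 TPM in wild-type littermates of SA. For the SE line the Skil-204 values were 10.9 and 7.26 TPM at basal and 8.54 and 9.46 TPM after KCl in SE, and 8.89 against 8.78 TPM in the wild type. Its basal and KCl values overlapped in both lines.

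Over all 47808 transcripts tested with edgeR, Skil-201 rose by 1.35 ± 0.16 on the log2 scale over both lines (2.54-fold, adjusted p = 0.00364), in a comparison that called 2.08% of transcripts. Within the SA line the value was 1.32 ± 0.21 (2.50-fold, edgeR adjusted p = 0.0349, with 0.535% of transcripts called). Within the SE line it was 1.37 ± 0.24 (2.58-fold, edgeR adjusted p = 0.0393, with 1.01% called). The value for Skil-204 over both lines was -0.03 ± 0.11, with a 95% interval of -0.29 to 0.23 and an edgeR adjusted p of 1. The Skil-201 call over both lines held in 18 of 18 alternatives (adjusted p from 5.875e-14 to 0.0212), but each single-line call was lost in 12 of 18, with adjusted p up to 0.132 in the SA line without SA KCl library 1 and 0.171 in the SE line without SE basal library 1. Without both libraries of wild type number 1 Skil-201 gave 1.21 in the SA line (edgeR adjusted p = 0.0832) and 1.29 over both lines (0.00886).

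As a share of both transcripts together, Skil-201 held 35.2% to 52.8% at basal and 62.5% to 69.0% after KCl in the SA line, and 40.9% to 56.2% and 69.4% to 73.8% in the SE line. The mean share was higher after KCl by 22.8 percentage points in the SA line (66.6% ± 2.94 against 43.8% ± 7.21, SD, n = 4; exact permutation test, two-sided, p = 0.0286, the smallest it allows). The difference was 22.6 points in the SE line (72.2% ± 2.38 against 49.6% ± 7.83, SD, n = 3; exact permutation p = 0.1, which is also the smallest possible). The 2 transcripts were compared after their values were seen, and basal and KCl shares did not overlap within either line. An exact permutation test then returns its smallest p, so both p-values only restate that separation. kallisto divides reads that fit both transcripts by a model, and the error of that division is not in these intervals.

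**Figure D3:**
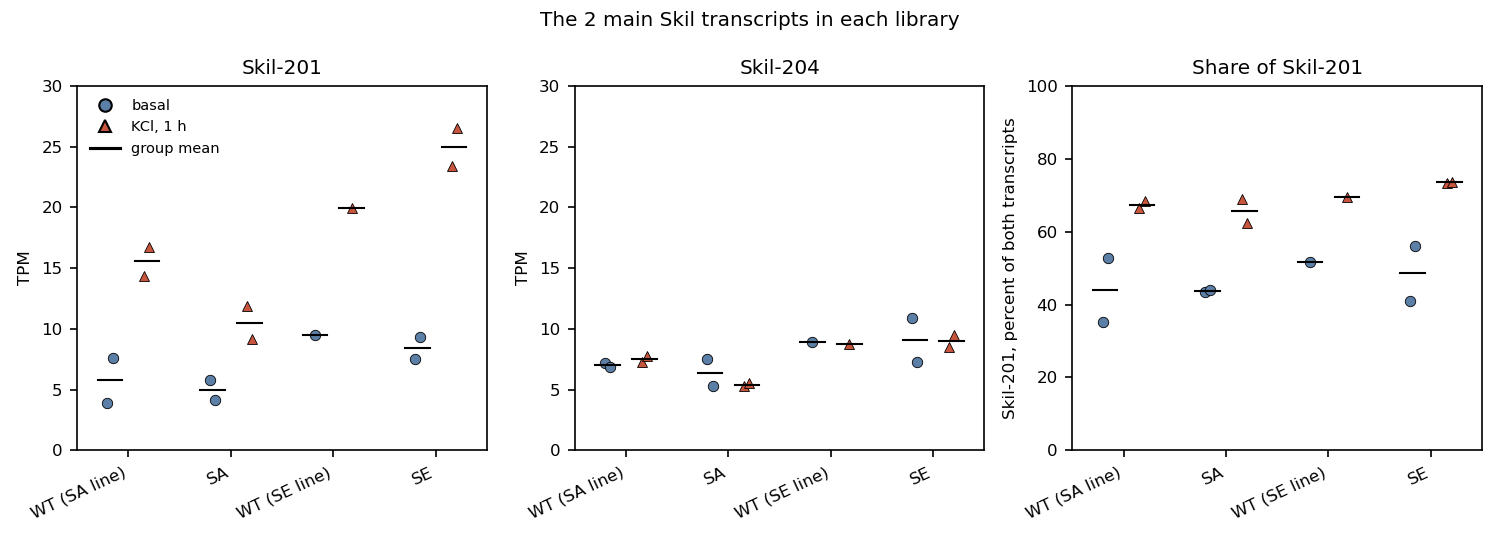
TPM of Skil-201 (left) and Skil-204 (middle) and the share of Skil-201 in their sum (right, percent), by genotype and line, with basal libraries as circles, KCl libraries as triangles and group means as lines. Skil-201 reaches 9.16 to 26.6 TPM after KCl while Skil-204 lies between 5.27 and 10.9 TPM in all 14 libraries.

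Bambi (ENSMUSG00000024232.1, chromosome 18, 3507923 to 3516404, plus strand), the pseudoreceptor, was higher after KCl in 7 of 7 same-number comparisons but did not pass the test. The KCl to basal ratios in those comparisons ran from 1.02, which is nearly level, to 1.92. Its SE-line values were 6.95 and 7.24 CPM at basal and 12.6 and 11.3 CPM after KCl in SE, and 6.94 against 13.4 CPM in the wild type. In the SA line it had 6.91 and 10.9 CPM at basal and 9.83 and 11.2 CPM after KCl in SA, and 11.4 and 8.38 against 14.99 and 9.78 CPM in the wild type. The groups did not overlap in the SE line and overlapped in the SA line. The log2 response was 0.82 in the SE line (95% interval 0.32 to 1.32, edgeR adjusted p = 0.111) and 0.28 in the SA line (-0.15 to 0.70, edgeR adjusted p = 1). The SE-line value passed the threshold with DESeq2 (adjusted p = 0.0357), in the edgeR fit on the libraries of that line alone (0.00129), and without both libraries of wild type number 1 of the SA line (0.0347). Over both lines it was 0.55 ± 0.15 (edgeR adjusted p = 0.0709), a value that passed the threshold in 6 of 21 alternatives (adjusted p from 1.37e-04 to 0.207), among them DESeq2 (0.0201), leaving out SA basal library 2 (0.0339) and leaving out KCl library 2 of the SA-line wild type (0.0326). Without both libraries of wild type number 1 the value over both lines was 0.52 (edgeR adjusted p = 0.0477).

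The other repressors and the receptor SMAD were not called after KCl in either line. Ski (chromosome 4, 155154075 to 155222592, minus strand), the closest relative of Skil, was nearly level, at 197 to 258 CPM over the 14 libraries. Its log2 response over both lines was 0.07, with a 95% interval of -0.06 to 0.19 (edgeR adjusted p = 0.764). Smad3 (chromosome 9, 63646767 to 63757994, minus strand) gave 0.04 (-0.27 to 0.36, edgeR adjusted p = 0.973), and Tgif1 (chromosome 17, 70844205 to 70853546, minus strand) gave -0.08 (-0.65 to 0.48, edgeR adjusted p = 0.970). Smad6 (chromosome 9, 63953076 to 64022059, minus strand), the inhibitory SMAD related to Smad7, gave -0.18, and its interval of -1.16 to 0.80 does not exclude a change of the size seen for Skil in either direction (edgeR adjusted p = 0.962). KCl libraries had less Smad6 in 6 of 7 same-number comparisons, 4 of 4 in the SA line and 2 of 3 in the SE line, and less Tgif1 in 4 of 4 and 1 of 3. Inhba (chromosome 13, 16011851 to 16031621, plus strand) gave -0.28 (-1.23 to 0.67, edgeR adjusted p = 0.910), and KCl libraries had less of it than basal libraries in 4 of 4 same-number comparisons of the SA line and in 1 of 3 of the SE line.

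Basal levels of 4 of the genes differed between the lines, in a comparison that called 47.8% of all genes. Of the 7 genes tested, 1 was higher (21.8% of all genes) and 3 were lower (26% of all genes) in the SE line. Skil was higher in the SE line by 0.75 ± 0.14 on the log2 scale (1.69-fold, edgeR adjusted p = 0.00156). Smad3 was lower, with 7.60 to 11.8 CPM at basal in the SE line and 18.9 to 28.5 CPM in the SA line (log2 difference -1.29 ± 0.20, edgeR adjusted p = 7.14e-04). Smad6 was lower, with 0.592 to 0.776 CPM against 1.35 to 5.29 CPM (-2.23 ± 0.62, edgeR adjusted p = 0.0142). That call was lost without SA basal library 2 (adjusted p = 0.0535), SE basal library 1 (0.0559) or SE basal library 2 (0.0673). Inhba was also lower, with 1.68 to 2.25 CPM against 4.62 to 21.04 CPM (-2.72 ± 0.62, edgeR adjusted p = 0.00539). Tgif1 (-0.73, edgeR adjusted p = 0.122), Bambi (-0.42, 0.128) and Ski (0.15, 0.160) were not called, though Tgif1 was called without basal library 2 of the SA-line wild type (0.0466) and Bambi without SA basal library 1 (0.0460). Without wild type number 1 the differences were -1.88 for Smad6 (edgeR adjusted p = 0.0237), -3.03 for Inhba (1.38e-04), -1.22 for Smad3 (8.31e-04) and 0.68 for Skil (0.00275). Smad7 itself was 0.33 higher on the log2 scale at basal in the SE line.

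Marker levels of several cell types moved with the line. The neuronal identity of the cultures was checked with 5 pan-neuronal genes, all detected, whose summed TPM was 1972 to 3055 in the SA line and 2261 to 2709 in the SE line. The largest part of that sum was Tubb3, at 1205 to 1917 and 1092 to 1482 TPM. Snap25 (148 to 257 and 384 to 422 TPM) and Syt1 (84.3 to 168 and 218 to 245 TPM) were higher in the SE line without overlap. Ranges of Tubb3, Map2 and Rbfox3 overlapped between the lines, so the similar sums do not show equal neuronal content. The summed TPM of 7 glutamatergic neuron markers, all detected, was 366 to 540 in the SA line and 1006 to 1085 in the SE line. Markers of other cells went the other way: 6 astrocyte genes summed to 877 to 1407 TPM in the SA line and 192 to 246 in the SE line, 6 neural progenitor genes to 746 to 2952 and 220 to 298 (of which Vim made 599 to 2659 and 182 to 258), 7 oligodendrocyte lineage genes to 335 to 473 and 61.0 to 76.3, and 6 GABAergic neuron genes to 312 to 433 and 90.7 to 152. Of the progenitor genes, Eomes, which marks intermediate progenitors, was instead higher in the SE line, at 5.72 to 8.84 TPM against 0.659 to 1.41 TPM. All genes of these lists were above 0 in every library. The 3 cycling genes summed to 75.6 to 221 TPM in the SA line and 5.72 to 9.04 in the SE line. Microglial (14.7 to 22.3 and 4.62 to 7.15 TPM), meningeal (37.3 to 98.5 and 8.09 to 11.4) and endothelial and mural sums (7.51 to 24.7 and 2.36 to 3.25) were small in both lines, and Cldn5, which defines brain endothelium, was listed at 0 to 0.243 TPM. In bulk RNA, fewer cells of a type and less RNA per cell cannot be told apart, and the part of these markers in the line differences of Smad3, Smad6, Inhba, Skil and Smad7 was not tested. Genetic background, litter, genotype pair and library preparation cannot be told apart from the line either.

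Within the SA line the libraries of wild type number 1 stood apart, and several of the genes moved with that. Smad3 was highest in them, at 28.5 CPM at basal and 32.4 after KCl, against 18.9 to 26.9 CPM in the other 6 SA-line libraries. Bambi was also highest in them, at 11.4 and 14.99 CPM against 6.91 to 11.2 CPM. Smad6 was highest there, at 5.29 CPM at basal and 4.81 after KCl, and lowest in SA number 1, at 1.35 and 0.934 CPM. Tgif1 had 13.6 and 13.2 CPM in wild type number 1 against 4.70 and 4.54 CPM in SA number 1. In the same libraries Vim, an intermediate filament gene of progenitors and glia, had 2336 and 2659 TPM in wild type number 1 and 599 and 652 TPM in SA number 1. Vim is 1 of the 6 listed progenitor genes, makes up most of their sum, and was not set in advance as the one to show. The astrocyte sum went the other way. It was 930 and 877 TPM in wild type number 1 and 1085 to 1407 TPM in the other 6 libraries of the line. Unlike Smad6 and Tgif1, Inhba was lowest in wild type number 1. It had 4.62 and 3.38 CPM there against 8.75 to 21.04 CPM in the other 6 SA-line libraries. Slc17a7, the vesicular glutamate transporter of mature cortical excitatory neurons, had 13.1 and 13.3 TPM in wild type number 1 and 138 to 191 TPM in those 6 libraries. It was singled out among the 7 glutamatergic markers after its values were seen. Another of them, Tbr1, had 24.7 and 23.4 TPM in wild type number 1, within the 21.4 to 28.3 TPM of the same 6 libraries. The 7 markers as a set did not share a fall of the size seen for Slc17a7. Their sum was 366 and 423 TPM in wild type number 1 and 372 to 540 TPM in the same 6 libraries. The low Inhba of the SE line came with the highest Slc17a7, at 393 to 488 TPM. The part of cell makeup in these values was not tested.

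**Figure D4:**
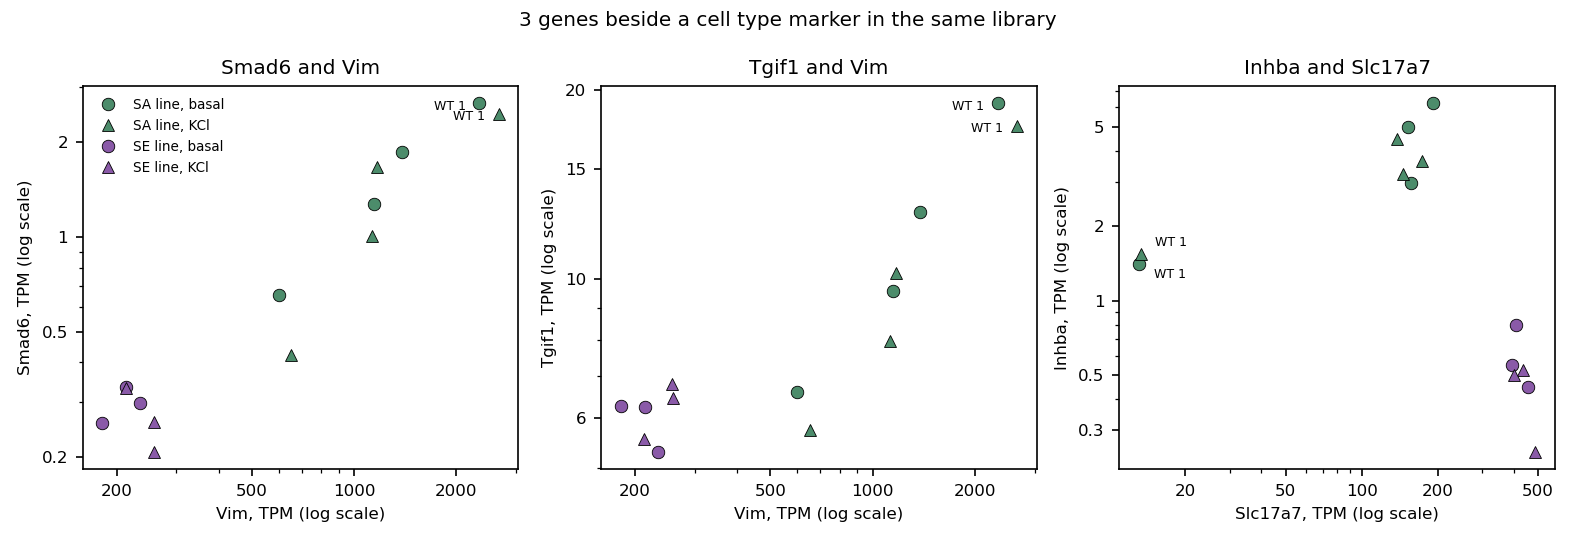
Smad6 and Tgif1 against Vim, and Inhba against Slc17a7, each in TPM on log axes, with 1 point per library (SA line green, SE line purple, basal circles, KCl triangles; WT 1 is wild type number 1 of the SA line). Both WT 1 libraries hold the highest Smad6, Tgif1 and Vim and the lowest Slc17a7. Vim is 1 of 6 listed progenitor genes and Slc17a7 1 of 7 glutamatergic neuron markers. Neither was set in advance, and the other markers are not shown.

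No difference between a BRG1 substitution and its littermate wild type passed the test for any of the 8 genes. In each of the 6 comparisons (SA or SE against wild-type littermates, at basal, after KCl, and for the KCl response itself) 0 of 8 genes passed and 0% of all genes were called with edgeR. At an unadjusted p under 0.05 edgeR gave 1279, 2040 and 122 genes for SA and 187, 240 and 159 for SE in that order, and DESeq2 with adjustment called 64 genes for SA after KCl. With no difference for any gene, a fraction of about 0.05 of the 17732 genes would fall under an unadjusted p of 0.05. The Smad7 log2 difference in response between SA and wild type was -0.12, with a 95% interval of -0.64 to 0.40. Between SE and its single wild-type library it was 0.12, with an interval of -0.49 to 0.74. Skil after KCl was lower in both SA libraries (64.1 and 53.2 CPM) than in both wild-type libraries (70.5 and 83.8 CPM), a log2 difference of -0.40 with an interval of -0.80 to 0.01 (edgeR adjusted p = 0.437, unadjusted 0.0532). That was the lowest unadjusted p of any of the 8 genes in these comparisons. Without wild type number 1, which leaves a single wild-type library per treatment, the Skil difference after KCl was -0.52. Intervals were wide for Smad6 (difference in response in SE of -3.11 to 3.76) and Inhba (-3.87 to 2.64), so these data set no close limit on an effect of the substitution on either gene.

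The rest of the pathway was read from a list of 69 further ligands, receptors, SMADs, regulators and target genes, of which 68 were in the files and 67 were tested. After KCl 3 of 67 rose in the SA line and 3 of 67 in the SE line, and none fell. Over all genes 2.02% and 2.81% were called in either direction, with 244 and 322 of 17732 called higher. The median log2 change of the list was 0.04 in the SA line and 0.05 in the SE line, against 0.00 and 0.01 over all genes. Of 15 ligands, 14 were tested. Bmp2, a BMP ligand, rose in the SA line by 1.39 ± 0.16 on the log2 scale (2.62-fold, edgeR adjusted p = 0.00117), from 1.55 to 2.31 CPM at basal to 4.77 to 5.82 CPM. Bmp2 gave 0.31 in the SE line (edgeR adjusted p = 0.675), and the difference between the lines did not pass (-1.08, edgeR adjusted p = 0.393). Among receptors 0 of 13 were called. The most abundant were Acvr1b and Acvr2a, activin receptors with mean levels of 54.1 and 42.9 TPM, whose log2 changes were -0.18 and -0.15 in the SA line and -0.23 and -0.11 in the SE line. The BMP receptors Bmpr1a (0.01 and -0.18) and Bmpr2 (-0.18 and -0.33) were likewise not called.

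Of the 5 other receptor and common SMADs 0 were called. Smad4, the common partner, had a mean of 35.9 TPM and changes of 0.03 and -0.10, and Smad2, of the activin and TGF-beta branch, had 34.2 TPM and changes of 0.21 and -0.01. Of 11 secreted or membrane regulators and 10 ubiquitin ligases and intracellular regulators, 0 were called. Tmeff1, a transmembrane protein with follistatin domains, was the most abundant of the former at 147 TPM (0.10 and -0.05), and Nedd4l, a ubiquitin ligase that acts on SMADs, had 56.5 TPM (-0.05 and -0.05). Called genes among the targets were Junb, Atf3 and Hes1, each also known to respond to other signals. Junb, an AP-1 subunit, rose from 9.96 to 12.9 CPM at basal to 495 to 609 CPM in the SA line (48.0-fold, edgeR adjusted p = 2.127e-08). SE-line Junb rose from 13.0 to 13.2 CPM to 1301 to 1733 CPM (111-fold, edgeR adjusted p = 2.807e-08). Atf3, a stress and activity transcription factor, rose 3.52-fold in the SA line (edgeR adjusted p = 7.21e-04) and 29.8-fold in the SE line (edgeR adjusted p = 1.70e-06). The difference for Atf3 between the lines was 3.08 ± 0.28 on the log2 scale (edgeR adjusted p = 0.00302). That contrast is the one behind the choice of Smad7, and the list was chosen with earlier results known. The p-values of Atf3 for it are therefore descriptions. Hes1, a repressor best known as a Notch target, rose in the SE line by 0.95 ± 0.19 (edgeR adjusted p = 0.0275) and gave -0.05 in the SA line, without a called difference between them (1.00, edgeR adjusted p = 0.561). Other SMAD targets such as Id2 (177 TPM; 0.09 and -0.14), Ctgf (85.8 TPM; 0.07 and 0.43) and Tsc22d1 (355 TPM; 0.30 and 0.10) were not called. Thbs1, which encodes thrombospondin 1, was 1.17-fold higher in the SA line (edgeR adjusted p = 1) and 2.30-fold higher in the SE line (0.421), and was not called. The cell cycle inhibitor gene Cdkn1a, also not called, gave log2 changes of 0.53 (edgeR adjusted p = 0.990) and 0.62 (0.709), and both were named after their values were seen. Without both libraries of wild type number 1 the SA-line calls were kept for Bmp2 (1.35, edgeR adjusted p = 0.00610), Junb (5.68, 1.852e-07) and Atf3 (1.92, 7.528e-05). The Atf3 difference between the lines was then 2.97 (edgeR adjusted p = 2.415e-04), and Hes1 in the SE line gave 0.95 (0.00660).

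**Figure D5:**
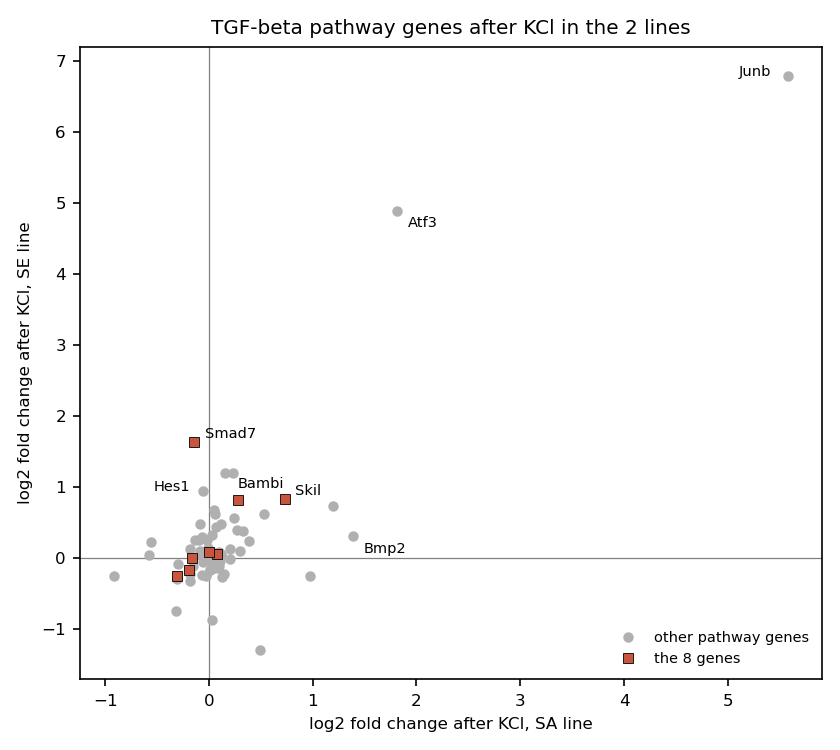
Log2 fold change after KCl in the SA line (horizontal) and the SE line (vertical) for the 67 tested pathway genes (grey circles) and the 8 genes (red squares). Smad7 lies at -0.14 and 1.64, Junb and Atf3 at the upper right, and most other genes near 0 on both axes.

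The genes whose levels ran most like Smad7 were looked up among 13145 named genes with a mean of at least 1 CPM, as a description. Over the 14 libraries they were Arl4d (Pearson r = 0.977), Shh (0.961), Zfp703 (0.959), Adrb1 (0.945) and Fosl1 (0.933), each of them highest in the 3 KCl libraries of the SE line. Smad7 was itself highest in those libraries, so the ranking favours such genes and this is no further shared feature. Arl4d, a small GTPase, had 11.8 to 17.6 CPM after KCl in the SA line and 216 to 260 CPM in the SE line. Shh, the hedgehog ligand, had 4.5 to 7.5 CPM after KCl in the SA line and 33.1 to 35.8 CPM in the SE line. In the 6 SE-line libraries alone the leading genes were Rasgef1b, Nr4a3, Elmsan1, Klf9 and Trib1 (r from 0.998 to 0.999). In the 8 SA-line libraries, where Smad7 hardly moved, they were Srrm1, Oraov1, Traf3ip1, Iqsec1 and Hdac4 (0.918 to 0.964). With Spearman's rank correlation 0 of these 5 genes were among the 5 leading ones in any of the 3 sets of libraries, and with log2 TPM 3 of 5 were over the 14 libraries and 0 of 5 within either line. Among the 8 genes, Skil (r = 0.980) and Bambi (0.970) ran most like Smad7 in the SE line, where all 3 were high after KCl, and gave -0.44 and -0.05 in the SA line.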

How the data were processed

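The 14 RNA-seq libraries were made with an Illumina kit. The submitters' processing notes name kallisto 0.43.1 and the mouse build GRCm38 (mm10). The authors deposited an estimated count for each transcript and gene symbol, the expected number of reads under kallisto's model. The authors also deposited TPM values, scaled by effective length. Neither the summing of transcripts to genes nor the strand setting is given in the sources.

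Rounded estimated counts were fitted with edgeR 4.0.16 (R 4.3.3): filterByExpr (17732 genes), TMM, and a quasi-likelihood fit of 8 group means to 14 libraries (6 residual degrees of freedom). The single wild-type libraries of the SE line were assumed to vary like the others. Adjusted p-values are Benjamini-Hochberg over all features tested, called under 0.05, and intervals are 95%. A line's response weighted its same-number library sets equally, and the lines equally in their mean. The members and gene lists were chosen with earlier results of these data known. Smad7 was therefore tested only against littermate wild type, and not in the response of a line, the mean response or between lines, although tests of it had been planned for the mean response and the basal line difference. Non-member pathway genes were named if called after KCl, or, among those not called, from the 4 most abundant of each sublist; not all of these are printed. Likeness to Smad7 used log2 CPM (prior count 2). Alternatives were TMM against RLE scaling, DESeq2 1.42.0, other count filters, limma 3.58.1 on log2(TPM + 0.5), each library left out, both libraries of wild type number 1 of the SA line left out, a replicate block, and fits within a line. The fit over transcripts and the permutation test of the Skil-201 share were added after the data were seen. The fitting was tested on simulated data. Coordinates are from GENCODE M21, and all 8 gene identifiers matched it, 1 of them without its version number.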

Additional observations from a re-analysis of the deposited data

Results flagged for a closer look

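The KCl response of Smad7 differed between the lines by 1.77 on the log2 scale, with a response of -0.14 in the SA line and 1.64 in the SE line. This difference is what chose the gene, so it carries no test here. It kept its direction in 21 of 21 alternatives, from 1.52 to 1.88, and was 1.85 without wild type number 1 of the SA line.

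The target gene Atf3 differed the same way, by 3.08 ± 0.28 on the log2 scale (interaction in edgeR, adjusted p = 0.00302), with 4 of 4 KCl libraries of the SA line at 11.9 to 17.6 CPM and 3 of 3 of the SE line at 151 to 167 CPM. This is the contrast behind the choice of Smad7, and Atf3 stood on a list chosen with earlier results of these data known. Its p is therefore a description and no independent support. The lines differ in cell type markers too, as given above, and the part of these in either value was not tested.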

How the results depend on the processing

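Over 22 alternatives no value of the 8 genes that was called changed direction. Genes called after KCl in the SA line (359) became 1040 with a replicate block and 169 within the line alone, those in the SE line (499) became 1771 and 1231, and those over both lines (891) became 2442 with the block. The line difference in response (27 genes) became 66 with DESeq2, 56 without a count filter and 146 with the block. Members called went from 1 to 0 in the SA line with limma and within the line alone, and in the SE line to 0 with limma and to 2, Bambi being added, with DESeq2, the block, the fit within the line, and without wild type number 1 of the SA line. Over both lines they became 2 with DESeq2, without a count filter, with the block, and without that wild type. Counts of 0 against wild type became 64 for SA after KCl (DESeq2). For SE at basal they became 1 (limma) and 3 (within the line), for SE after KCl 1 (DESeq2), 3 (no filter) and 12 (within the line), and for the SE difference in response 1 (DESeq2, limma, within the line) and 2 (block).

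Leaving out 1 library at a time gave 213 to 364 genes in the SA line, 230 to 517 in the SE line, 582 to 880 over both, 12 to 42 for the line difference and 6304 to 8766 at basal. Against wild type it gave 0 to 1. Members called ranged from 0 to 1 in each line, 1 to 2 over both and, at basal, 3 to 5. The lowest counts came without SA KCl library 2 (213), SE basal library 1 (230 and 12) and SE KCl library 1 (582).

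Basal and KCl libraries of one number deviated together in SA (r = 0.422) and the wild type of its line (0.67) but not in SE (-0.0512), and the labels state no pairing, so the numbers were not taken as pairs. Under the block the basal Smad6 difference was not called (adjusted p = 0.0745) and Bambi was called over both lines (1.37e-04). The causes of these shifts were not tested. Depth limits Smad6 and Inhba most, with as few as 10 and 19 counts. A line rests on 3 or 4 libraries per treatment, and the SE-line wild type on 1.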
